A study of Mus musculus with 4 samples.

Results

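The levels of 10 genes that build or maintain the photoreceptor outer segment were followed in sorted cells of the neonatal mouse retina: Prph2, Rom1, Cdhr1, Prom1, Rp1, Rpgrip1, Tulp1, Fscn2, Aipl1 and Unc119. They were chosen by gene symbol, as 10 of the 21828 genes analyzed. Each had 1 line and the Cufflinks status OK in all 4 libraries, and all 10 reached an FPKM (reads scaled by exon length and by the total mapped in a library) of at least 1 in 1 library or more. Fscn2 did so only in P4 pHes1_ENC.

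The retinas came from untreated mice at postnatal day 1 (P1) and postnatal day 4 (P4). Their labels give the strain FVB/N, whereas the study's methods name ICR mice beside the transgenic line, so the background strain is uncertain. All carried a transgene in which a 2.5-kb promoter of Hes1, a transcriptional repressor of the Notch pathway, drives destabilized EGFP. Cells were sorted into an EGFP-positive fraction, pHes1_EPC, and an EGFP-negative fraction, pHes1_ENC, and each fraction at each age gave 1 library. With 1 library per group there is no replicate and no test, so every difference given here is a difference between libraries. The promoter fragment, not the Hes1 protein, decided the fraction, and how many animals were pooled is not given in the sources used here.

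The outer segment is a modified primary cilium filled with stacked membrane discs. Its discs are folded at their rims by tetraspanins, kept in register by cadherins and an axoneme, and renewed throughout life with proteins that pass through a narrow connecting cilium. Loss of any of these functions is known to cause photoreceptor degeneration. Discs form in mice after the ages sampled, so P1 and P4 precede the structure that these genes serve.

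Positions are those of the build NCBI37/mm9, which the files use. Prph2 spans chr17:47047434-47061875 on the plus strand with 3 exons, and its partner Rom1 spans chr19:9001872-9003846 on the minus strand, also with 3 exons. Cdhr1 lies at chr14:37891035-37911497 on the minus strand with 17 exons, and Prom1 at chr5:44384861-44492975 on the minus strand with 28 exons. Rp1 lies at chr1:4280927-4399322 on the minus strand with 4 exons, and Rpgrip1 at chr14:52730578-52781014 on the plus strand with 25 exons. Tulp1 lies at chr17:28488464-28502088 on the minus strand with 15 exons, and Fscn2 at chr11:120222848-120229487 on the plus strand with 5 exons. Aipl1 lies at chr11:71842224-71851011 on the minus strand with 6 exons, and Unc119 at chr11:78157024-78162658 on the plus strand with 5 exons. Exon counts are those of the longest coding transcript in the GENCODE M1 annotation, whose spans can differ from those given. There Rp1 spans only chr1:4334224-4350473. In the GENCODE M1 annotation Prom1 overlaps Gm16401 on the opposite strand over 1591 bases, and Rpgrip1 overlaps Supt16h on the opposite strand over 889 bases. The library protocol names no strand marking, so reads from these overlaps cannot be assigned to a gene. Supt16h, a histone chaperone subunit, had FPKM of 38.7, 57.2, 44.7 and 43.1 in P1 pHes1_ENC, P1 pHes1_EPC, P4 pHes1_ENC and P4 pHes1_EPC, an order unlike that of Rpgrip1.

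As most of these genes moved together, their promoters were searched for letters known from photoreceptor regulation. RefSeq promoters of GRCm38.p6 (250 bases before to 50 bases after a start) were matched by symbol for 9 of the 10 genes, with 12 promoters in all, and Rp1 was not matched. The core of the site bound by CRX and OTX2, TAATCC, was found on either strand in promoters of 3 genes, Rpgrip1, Aipl1 and Unc119, which is 3 of their 12 promoters, against 7.06% of all 32851 promoters. In Rpgrip1 it begins at position -28 from the start. In Aipl1 it begins at -53 and again at 11, after the start, and in Unc119 it lies at -118 of the second of 3 promoters. The part of the NRL and MAF site searched, TGCTGAC, was found in 0 of the 9 genes and in 4.67% of all promoters. The E-box CANNTG was found in 4 of the 9 genes (Cdhr1, Prom1, Aipl1 and Unc119; 5 of 12 promoters) against 72.31% of all promoters, the GC box GGGCGG in 4 (Rom1, Prom1, Fscn2 and Unc119; 4 of 12 promoters) against 35.66%, and the TATA box TATAAA in 2 (Rpgrip1 and Fscn2; 2 of 12 promoters) against 13.62%. The TATAAA matches begin at -135 in Rpgrip1 and -234 in Fscn2, both on the strand opposite to the gene. No motif contains another, although neighbouring matches may share bases at their ends. A match is a description of the letters and not of a bound site.

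The 250 bases before the start are shown for the Rpgrip1 and Aipl1 promoters, which hold the core closest to the start. These bases are also shown for the Rom1 promoter, which has no such core but GC boxes. They are read 5′ to 3′ on the strand of the gene, from chr14:52730328-52730577, chr11:71851012-71851261 and chr19:9003847-9004096 of NCBI37/mm9, where each RefSeq sequence matched exactly once. Capitals mark TAATCC, here as its reverse complement GGATTA.
Rpgrip1: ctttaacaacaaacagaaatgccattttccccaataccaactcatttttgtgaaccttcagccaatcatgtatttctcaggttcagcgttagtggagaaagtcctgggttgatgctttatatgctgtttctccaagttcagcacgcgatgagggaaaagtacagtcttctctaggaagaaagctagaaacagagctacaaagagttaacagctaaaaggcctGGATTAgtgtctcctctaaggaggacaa
Aipl1: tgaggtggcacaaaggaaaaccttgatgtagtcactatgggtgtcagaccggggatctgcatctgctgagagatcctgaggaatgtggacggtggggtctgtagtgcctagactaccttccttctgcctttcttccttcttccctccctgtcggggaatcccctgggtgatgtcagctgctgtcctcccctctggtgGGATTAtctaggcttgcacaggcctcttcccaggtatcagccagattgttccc
Rom1: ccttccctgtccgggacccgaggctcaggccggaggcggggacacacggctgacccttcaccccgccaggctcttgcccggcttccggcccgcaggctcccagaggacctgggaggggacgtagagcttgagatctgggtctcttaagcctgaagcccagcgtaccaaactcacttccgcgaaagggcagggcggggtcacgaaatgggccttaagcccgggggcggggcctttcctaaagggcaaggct

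All 10 genes were lower in pHes1_EPC than in pHes1_ENC at both ages and higher at P4 than at P1 in both fractions. P4 pHes1_ENC was the highest library and P1 pHes1_EPC the lowest for each of them, as the plot of levels shows. The summed FPKM of the 10 genes was 679 in pHes1_ENC and 77.0 in pHes1_EPC at P1, and 3049 and 581 at P4. This was 0.245%, 0.0261%, 1.0% and 0.156% of the FPKM of all genes analyzed. In libraries of sorted cells, fewer cells of a type and less RNA per cell cannot be told apart.

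**Figure D1:**
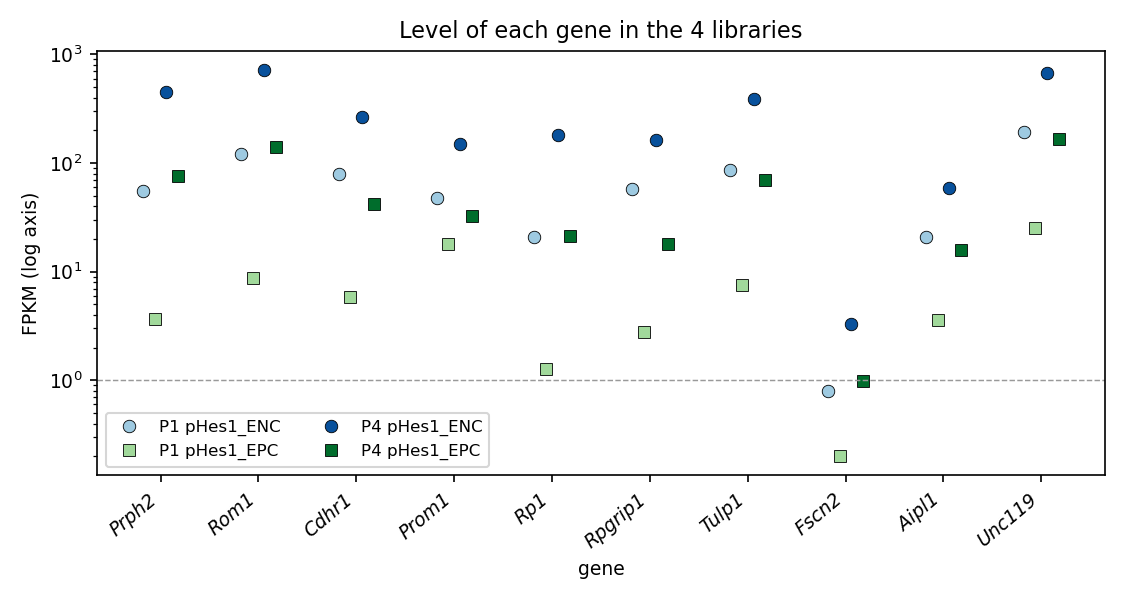
FPKM (log axis) of the 10 genes in the 4 libraries, 1 point per library, with a dashed line at an FPKM of 1. For each gene P4 pHes1_ENC is highest and P1 pHes1_EPC lowest, and Fscn2 lies far below the rest, from 0.201 to 3.27.

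A difference is log2(FPKM + 1) in pHes1_EPC minus that in pHes1_ENC, and a gene was called when it was beyond 1 in size, that is 2-fold. At P1, 9 of the 10 genes were called lower in pHes1_EPC, beside 11.5% of the 12941 genes that reached an FPKM of 1 in 1 library or more. At P4 all 10 were called lower, beside 9.15%. The median difference of the 10 genes was -3.31 at P1 and -2.42 at P4, beside medians of 0.02 and 0.15 over the 12941 genes. The Cufflinks 95% intervals, which cover counting error only, were separate in this direction for all 10 genes at P1, as for 32.7% of the 12941 genes, and for all 10 at P4, as for 29.2%. Rpgrip1 held place 31 of 12941 from the lowest difference at P1 and place 12 at P4.

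Among the disc genes, Prph2 encodes peripherin-2, the tetraspanin that curves the disc rim. Its FPKM was 55.1 in P1 pHes1_ENC and 3.69 in P1 pHes1_EPC, 14.9 times lower, with a range of 11.6 to 17.7 from the Cufflinks intervals. At P4 it was 449.8 in pHes1_ENC and 75.3 in pHes1_EPC, 5.97 times lower with a range of 5.6 to 6.25. In unscaled FPKM the later pHes1_EPC library thus exceeded the earlier pHes1_ENC library for this gene.

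Rom1, the tetraspanin that assembles with peripherin-2, showed the same order of libraries at higher levels. Its FPKM was 120.2 and 8.81 in pHes1_ENC and pHes1_EPC at P1, 13.6 times apart (range 11.0 to 15.9), and 718 and 139.8 at P4, 5.13 times apart (range 4.82 to 5.38). In unscaled FPKM both fractions of the earlier age lay below both fractions of the later age. The FPKM of all genes summed to 277433 in P1 pHes1_ENC and 372016 in P4 pHes1_EPC. Relative to these sums Rom1 stood higher in P1 pHes1_ENC than in P4 pHes1_EPC. With 718, Rom1 held place 20 of all genes in P4 pHes1_ENC by FPKM. The level of Prph2 relative to Rom1, per length, was 0.459 and 0.418 in P1 pHes1_ENC and P1 pHes1_EPC, and 0.626 and 0.539 at P4. Within an age the fractions thus differed less in this ratio than in the level of either gene.

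Cdhr1 encodes a photoreceptor cadherin at the base of the outer segment, where new discs form. Its FPKM was 79.1 in P1 pHes1_ENC and 5.90 in P1 pHes1_EPC, a ratio of 13.4 (range 11.5 to 14.9), and at P4 it was 265 and 41.9, a ratio of 6.32 (range 5.93 to 6.63). Here P1 pHes1_ENC stayed above P4 pHes1_EPC, unlike for the tetraspanins in unscaled FPKM. Cdhr1 stood at 1.43 and 1.6 times the FPKM of Prph2 in the P1 libraries and at 0.589 and 0.556 times in the P4 libraries.

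Prom1 (prominin-1, or CD133), a membrane protein of nascent discs that is also known from stem and progenitor cells, differed from the other disc genes. Its FPKM was 47.2 in P1 pHes1_ENC and 18.0 in P1 pHes1_EPC, a ratio of only 2.62 (range 2.38 to 2.92). At P4 it was 149.7 and 32.6, a ratio of 4.59 (range 4.31 to 4.95). It was thus the only one of the 10 genes whose ratio between the fractions was larger at P4 than at P1 with separate ranges.

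Of the genes of the axoneme, cilium and cytoskeleton, Rp1 encodes a doublecortin-domain protein that binds the microtubules of the axoneme. Its FPKM was 21.0 in P1 pHes1_ENC and 1.27 in P1 pHes1_EPC, a ratio of 16.6 (range 14.1 to 20.1), and 182 and 21.1 at P4, a ratio of 8.62 (range 8.25 to 9.25). In unscaled FPKM the level in P4 pHes1_EPC was that of P1 pHes1_ENC, with overlapping intervals. Fscn2 was the only other gene with overlapping intervals of libraries next to each other in order, for the same libraries.

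Rpgrip1, which anchors the RPGR protein in the connecting cilium, had the largest ratio of the 10 genes at both ages. Its FPKM was 57.1 in P1 pHes1_ENC and 2.76 in P1 pHes1_EPC, a ratio of 20.7 (range 18.1 to 24.6), and 163 and 18.0 at P4, a ratio of 9.06 (range 8.51 to 9.91). At each age its range overlapped that of Rp1. Relative to Rpgrip1, the FPKM of Rp1 was 0.368 and 0.459 in the P1 libraries and 1.12 and 1.18 in the P4 libraries, so these neighbours in the cilium exchanged places in both fractions.

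Tulp1, a tubby-family protein of photoreceptors known to be needed for transport into the outer segment, had FPKM of 86.2 and 7.62 in pHes1_ENC and pHes1_EPC at P1, which is 11.3 times apart (range 9.23 to 13.1). At P4 they were 391 and 69.3, a ratio of 5.64 (range 5.18 to 5.98). Its library order was that of Cdhr1.

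Fscn2, the retinal fascin that bundles actin, was barely measured. Its FPKM was 0.792 in P1 pHes1_ENC and 0.201 in P1 pHes1_EPC, and 3.27 and 0.991 at P4. The widths of the intervals correspond to 11.9 to 82.5 reads, compared with 79.1 to 20898 reads for the other 9 genes. The ratio was 3.94 (range 1.53 to 11.9) at P1 and 3.3 (range 1.87 to 5.95) at P4. On the log2(FPKM + 1) scale, which shrinks differences of low genes, this was -0.58 at P1, short of the 2-fold call, and -1.10 at P4. With a pseudocount of 0.1 the P1 difference was -1.57, and Fscn2 was then called as well.

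At both ages the chaperones were among the 4 genes with the smallest ratios. Aipl1, which folds the rod phosphodiesterase together with HSP90, had FPKM of 21.1 and 3.62 in pHes1_ENC and pHes1_EPC at P1, which is 5.81 times apart (range 4.03 to 7.75), and 59.4 and 15.8 at P4, a ratio of 3.77 (range 3.14 to 4.4). Unc119, which carries acylated proteins such as the transducin alpha subunit, was the most abundant of the 10 genes in 3 of the 4 libraries. Its FPKM was 192 and 25.1 at P1, which is 7.64 times apart (range 6.46 to 8.57), and 668 and 167 at P4, a ratio of 4.01 (range 3.75 to 4.23). Aipl1 stood at 0.11, 0.144, 0.0888 and 0.0946 of the FPKM of Unc119 in P1 pHes1_ENC, P1 pHes1_EPC, P4 pHes1_ENC and P4 pHes1_EPC.

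**Figure D2:**
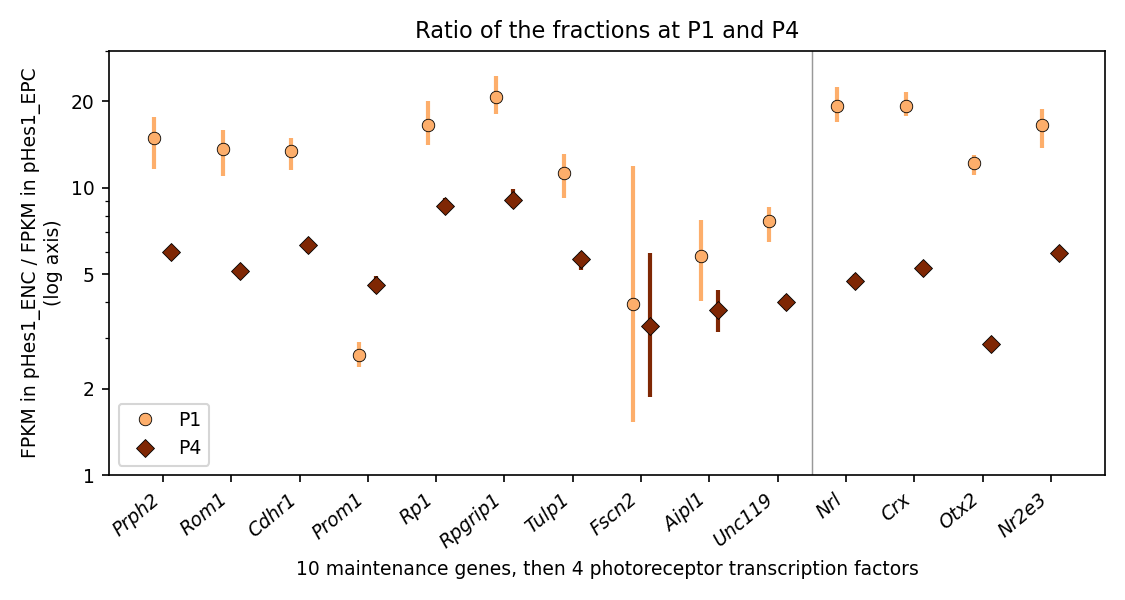
FPKM in pHes1_ENC divided by FPKM in pHes1_EPC (log axis) at P1 (circles) and P4 (diamonds), for the 10 genes and 4 photoreceptor transcription factors, with lines for the range from the Cufflinks 95% intervals (counting error only). Prom1 is the gene whose P4 ratio (4.59) lies above its P1 ratio (2.62) with separate ranges, and the ranges of Fscn2 and Aipl1 overlap between ages.

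The ratio of pHes1_ENC to pHes1_EPC was smaller at P4 than at P1, with separate ranges, for 7 of the 10 genes, beside 29.5% of the 12941 genes. It was larger at P4, with separate ranges, for 1 (Prom1), beside 11% of the 12941 genes, and the ranges of Fscn2 and Aipl1 overlapped. For the 7 genes the P1 ratio was between 1.9 (Unc119) and 2.66 (Rom1) times the P4 ratio, whereas for Prom1 the P4 ratio was 1.75 times the P1 ratio. The larger gap at P1 for Prph2, Rom1, Cdhr1, Rp1, Rpgrip1, Tulp1, Aipl1 and Unc119, and the larger gap at P4 for Prom1, held in all 11 settings of scaling, filter and pseudocount that were computed. The gap of Fscn2 was larger at P4 in 10 of the 11 and larger at P1 without a pseudocount. Settings of filter and of summed lines could not change a gap, as each of the 10 genes has 1 line. They repeat the main values, so only those of scaling and pseudocount were able to differ.

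Known regulators of the photoreceptor lineage, chosen outside the rule for named genes, were set beside these ratios. For Crx, the homeobox factor of photoreceptors, it was 19.3 at P1 (FPKM of 266 against 13.8) and 5.28 at P4 (739 against 140). For Nrl, the leucine zipper factor of rods, it was 19.3 and 4.75, for the orphan nuclear receptor gene Nr2e3 16.5 and 5.95, and for the homeobox gene Otx2 12.2 and 2.86. Over the 10 photoreceptor transcription factors that reached an FPKM of 1, the ratio was smaller at P4 with separate ranges for 7, larger for 1 (Mef2d, 3.85 and 6.4) and overlapping for Rxrg and Thrb. The P1 ratio was between 0.602 (Mef2d) and 4.84 (Neurod1) times the P4 ratio, a span that holds those of the 10 maintenance genes other than Prom1. For Otx2, Nrl, Crx and Nr2e3 it was 4.26, 4.07, 3.66 and 2.77 times. These and Neurod1 lay above Rom1, the largest of the 10 genes with 2.66. Prdm1, Rorb, Rxrg, Thrb and Mef2d lay below Rom1.

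From P1 to P4 all 10 genes were called higher in pHes1_ENC, beside 4.67% of the 12941 genes, and 8 of the 10 in pHes1_EPC, beside 7.04%. The median change was 1.76 in pHes1_ENC and 2.66 in pHes1_EPC, beside -0.01 and 0.17 over the 12941 genes. The intervals were separate for all 10 genes in pHes1_ENC, as for 27.4% of the 12941 genes higher at P4, and for all 10 in pHes1_EPC, as for 43.3%. These 2 age comparisons use the same 4 libraries as the comparisons of fractions and are not independent of them.

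In pHes1_ENC the largest fold was that of Rp1, 8.65 (range 8.29 to 9.24), next to Prph2 with 8.16 (range 7.63 to 8.57), whose range overlaps it. Rom1 followed with 5.97 (range 5.6 to 6.27) and Tulp1 with 4.54 (range 4.25 to 4.8). Unc119, Cdhr1 and Prom1 stood at 3.49, 3.35 and 3.17 times their P1 level, and Rpgrip1 and Aipl1 at 2.84 and 2.82 times. Fscn2 stood at 4.12 times, with a range of 2.33 to 7.6. The genes of disc rim and axoneme thus had the largest age folds in this fraction, while Rpgrip1, at the connecting cilium, had one of the smallest.

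In pHes1_EPC the fold of Prph2 was 20.4 (range 15.9 to 24.1), that of Rp1 16.7 (range 14.1 to 20.2) and that of Rom1 15.9 (range 12.8 to 18.5), with overlapping ranges. Tulp1 stood at 9.09 times its P1 level (range 7.4 to 10.7), Cdhr1 at 7.1 (range 6.04 to 8.01), Unc119 at 6.64, Rpgrip1 at 6.51 and Aipl1 at 4.35. Prom1 stood at 1.81 times (range 1.64 to 2.03), a difference of 0.82 that fell short of the call, and Fscn2 at 4.92 times (range 1.95 to 14.9), a difference of 0.73. The fold was larger in pHes1_EPC than in pHes1_ENC for 9 of the 10 genes, Prom1 being the other, and for Fscn2 and Aipl1 the ranges of both folds overlap.

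**Figure D3:**
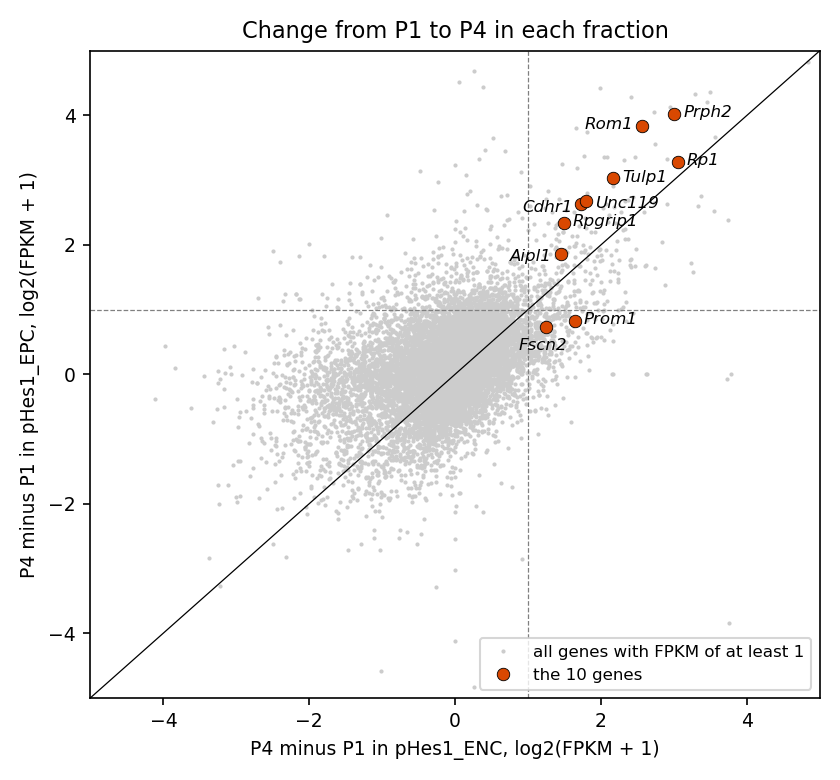
Difference of P4 minus P1 on the log2(FPKM + 1) scale in pHes1_ENC (x axis) and pHes1_EPC (y axis) for all genes that reached an FPKM of 1 (grey, axes limited to 5 in size) and the 10 genes (orange), with dashed lines at 1 and a solid line where both are equal. Above the solid line lie 8 of the genes, up to Prph2 at 3.01 and 4.03, whereas Prom1 (1.65 and 0.82) and Fscn2 (1.25 and 0.73) lie below it and below the 2-fold line of pHes1_EPC.

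The order of the 4 libraries in unscaled FPKM took 2 forms. For 6 genes (Cdhr1, Prom1, Rpgrip1, Tulp1, Aipl1 and Unc119) P1 pHes1_ENC stood second and P4 pHes1_EPC after it. For the other 4 (Prph2, Rom1, Rp1 and Fscn2) P4 pHes1_EPC stood second, although for Rp1 and Fscn2 its interval overlapped that of P1 pHes1_ENC. Relative to the FPKM sum of each library, P1 pHes1_ENC stood above P4 pHes1_EPC for Rom1, Rp1 and Fscn2 as well. The order of the libraries was not followed over the settings of scaling.

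The makeup of the 10 genes differed most in P1 pHes1_EPC. Prom1 made up 23.4% of their summed FPKM there, compared with 6.94% in P1 pHes1_ENC, 4.91% in P4 pHes1_ENC and 5.61% in P4 pHes1_EPC. Relative to Prph2, the FPKM of Prom1 was 4.88 in P1 pHes1_EPC and between 0.333 and 0.856 in the other libraries, and relative to Cdhr1 it was 3.05 and between 0.565 and 0.779. Prph2 itself made up 4.79% in P1 pHes1_EPC and 14.8% in P4 pHes1_ENC, and Rom1 made up 11.4% and 23.6%. The shares of Prph2 and Rom1 in both P4 libraries, 14.8% and 13.0% for Prph2 and 23.6% and 24.1% for Rom1, were close although the levels differed 5.97-fold and 5.13-fold.

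**Figure D4:**
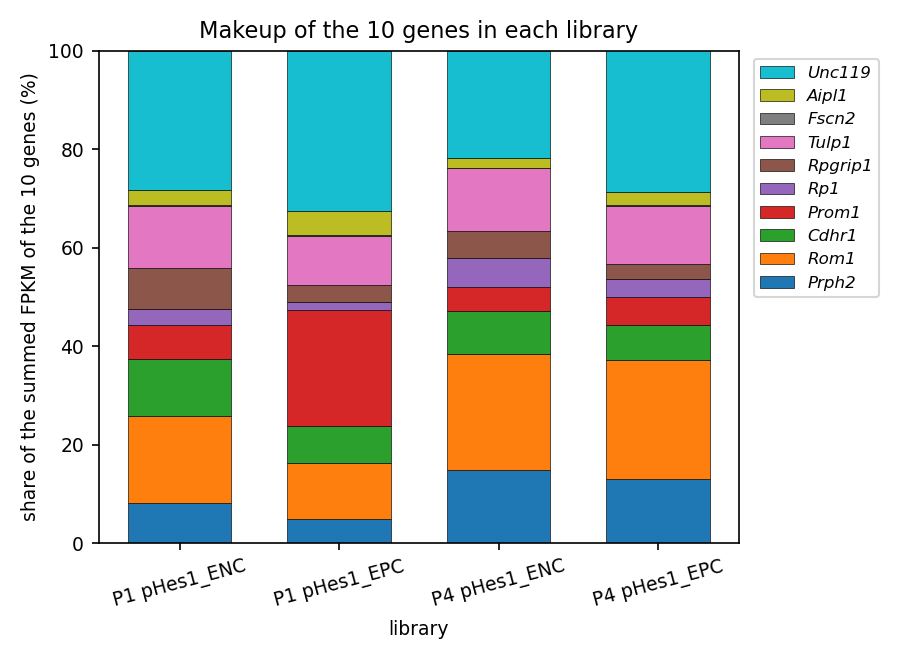
Share of each gene in the summed FPKM of the 10 genes, in percent, as stacked bars for the 4 libraries. The share of Prom1 (red) is 23.4% in P1 pHes1_EPC and 4.91% to 6.94% elsewhere, and Fscn2 is too low to be seen.

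Paralogs of the 10 genes, outside this set, mostly lacked this pattern. Of the 10 analyzed, 7 reached an FPKM of 1. At P1, 3 of these 7 were called lower and 1 higher in pHes1_EPC, beside 11.5% and 10.3% of the 12941 genes. At P4, 2 of the 7 were called lower and 2 higher, beside 9.15% and 16.6%. The median difference of the 7 paralogs was -0.24 at P1 and -0.33 at P4.

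Rp1l1, the relative of Rp1 in the axoneme, and Tub, the founder of the tubby family, were the paralogs that followed their relatives. The FPKM of Rp1l1 was 6.56, 0.663, 39.2 and 4.69 in P1 pHes1_ENC, P1 pHes1_EPC, P4 pHes1_ENC and P4 pHes1_EPC, with a difference of -2.82 at P4 beside -3.05 for Rp1. The FPKM of Tub was 13.2, 1.63, 52.8 and 7.18, with a difference of -2.72 at P4 beside -2.48 for Tulp1. Both were called lower in pHes1_EPC at each age.

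Tulp3, a tubby-family protein of primary cilia, and Fscn1, the fascin of many tissues, stood on the other side. The FPKM of Tulp3 was 16.4, 42.8, 11.4 and 51.2 in the same order, 1.33 higher in pHes1_EPC on the log2(FPKM + 1) scale at P1 and 2.08 higher at P4. The FPKM of Fscn1 was 163, 138, 89.0 and 185, a difference of -0.24 at P1 and 1.05 at P4. In each library it exceeded the FPKM of Fscn2, which was at most 3.27.

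The paralogs Rpgrip1l and Unc119b differed little between the libraries. Rpgrip1l, a transition zone protein, had FPKM between 3.37 and 5.28. Unc119b had FPKM between 26.3 and 34.0, whereas Unc119 ranged from 25.1 to 668. In P1 pHes1_EPC the levels of this pair, 25.1 and 27.9, were thus alike per length. Tulp4 had FPKM of 33.0, 13.6, 19.5 and 13.7, with differences of -1.22 at P1 and -0.49 at P4. Tulp2 did not exceed 0.303, Prom2 did not exceed 0.0452, and Fscn3 was listed at 0 in 3 libraries and at 0.048 in P1 pHes1_EPC.

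**Figure D5:**
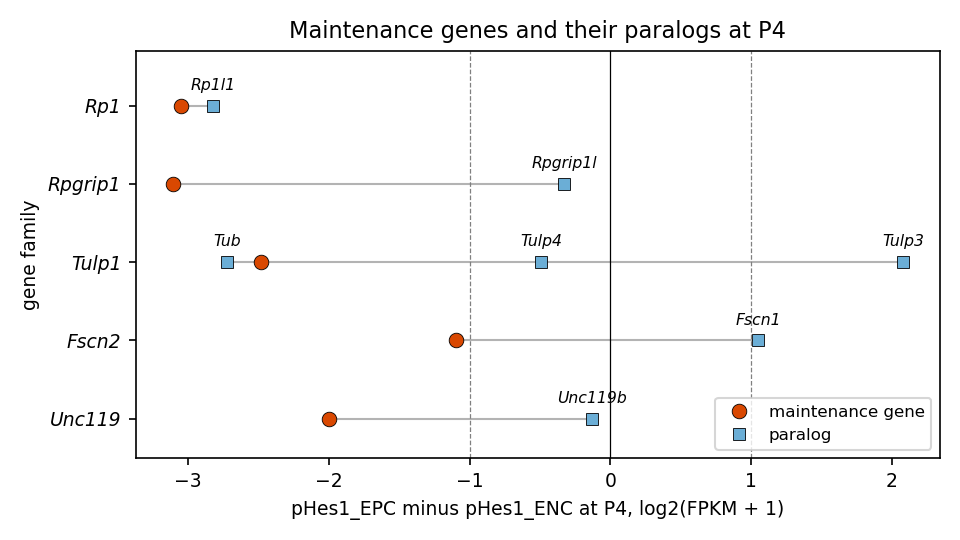
Difference of pHes1_EPC minus pHes1_ENC at P4 on the log2(FPKM + 1) scale for the maintenance genes that have paralogs shown (circles) and those paralogs with an FPKM of at least 1 (squares), with dashed lines at 2-fold. Rp1l1 (-2.82) and Tub (-2.72) lie beside their relatives, and Tulp3 (2.08) and Fscn1 (1.05) lie on the other side of 0.

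Genes of other outer segment and maintenance functions shared the direction. Of 30 listed and 29 measured, 26 reached an FPKM of 1. Of the 26, 16 were called lower in pHes1_EPC at P1 and 21 at P4, beside 11.5% and 9.15% of the 12941 genes. At both ages 0 were called higher, beside 10.3% and 16.6%. The medians were -1.46 at P1 and -2.29 at P4. Many of these genes were low at P1, and without a pseudocount the medians were -2.53 at P1 and -2.39 at P4, so the order of the ages depends on it. From P1 to P4, 20 were called higher in pHes1_ENC and 17 in pHes1_EPC, beside 4.67% and 7.04%. Rbp3, the retinoid carrier between the cells, had FPKM of 193, 12.9, 600 and 77.8 in P1 pHes1_ENC, P1 pHes1_EPC, P4 pHes1_ENC and P4 pHes1_EPC, and a P4 difference of -2.93. Impg2, a proteoglycan of the matrix around photoreceptors, had a P4 difference of -2.88. At the other end stood the cilium gene Spata7 with -0.02 and the kinesin gene Kif3a with 0.36.

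Among 11 rod phototransduction genes, 7 were called lower in pHes1_EPC at P1 and 10 at P4, beside 11.5% and 9.15% of the 12941 genes. The medians were -1.51 at P1 and -1.84 at P4. Without a pseudocount these medians were -2.65 and -1.97, so here too the larger gap at P4 depends on it. All 11 were called higher at P4 in pHes1_ENC, beside 4.67% of the 12941 genes, with a median change of 2.88. The rhodopsin kinase gene Grk1 had a P4 difference of -2.83 and the regulator Rgs9 of -2.65, whereas the transducin beta gene Gnb1 had -1.11 and the cyclase activator Guca1b -0.63. Compared with these genes, the median of the 10 maintenance genes was larger in size between the fractions at both ages and smaller between the ages in pHes1_ENC.

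Of 11 photoreceptor transcription factors, 10 reached an FPKM of 1 and 9 were called lower in pHes1_EPC at each age. Over the 12941 genes 11.5% were called lower at P1 and 9.15% at P4. The medians of the 10 factors were -3.55 at P1 and -2.28 at P4. The P4 difference was -2.59 for Mef2d, a factor of the myocyte enhancer family, -2.57 for Nr2e3, -1.51 for the thyroid hormone receptor gene Thrb and 0.15 for the nuclear receptor gene Rorb. From P1 to P4, 4 of the 10 were called higher in pHes1_ENC and 7 in pHes1_EPC, beside 4.67% and 7.04% of the 12941 genes.

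Genes that serve cilia and lipidated proteins in many cell types were analyzed next. Of 8 genes of lipidated protein transport and chaperoning, 0 were called lower in pHes1_EPC at P1 and 1 at P4, Arl13b with -1.14. Over the 12941 genes 11.5% and 9.15% were called lower. At both ages 0 of the 8 were called higher, beside 10.3% and 16.6%. The prenyl-binding gene Pde6d had -0.90 at P4, the HSP90 gene Hsp90ab1 0.76 and Arl2bp 0.82. The median of this list at P4, 0.12, changed sign in 4 of the 11 settings, which are those that rescale the libraries. Of 18 genes of the basal body, intraflagellar transport and the BBSome, a coat complex of ciliary cargo, 1 was called lower at P1 and 7 at P4, beside 11.5% and 9.15% of the 12941 genes, with medians of -0.03 and -0.62. The 7 were Bbs1, Bbs2, Bbs4, Bbs5, Bbs7, Bbs9 and Ttc8, which encode subunits of the BBSome, and they were named after their values were seen. Their P4 differences lay between -1.70 (Bbs5) and -1.06 (Bbs2), compared with 0.19 for Bbs10 and 0.69 for Ift57. All 18 had a higher FPKM at P4 in pHes1_ENC, 6 of them past the call, beside 4.67% of the 12941 genes.

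The genes with the most similar pattern were found by the Euclidean distance between log2(FPKM + 1) values, centred on their mean over the 4 libraries, among the 12941 genes. This is a description of 4 libraries. Closest to Prph2 were Pdc, which encodes phosducin, at 0.13 and Nr2e3 at 0.26, and the same genes were closest to Rom1, at 0.31 for Nr2e3 and 0.34 for Pdc. Prph2 and Rom1 held place 3 for each other, at 0.35, and Prph2 held place 3 for Rp1, at 0.53.

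Closest to Cdhr1 were the phosphatase gene Ppef2 at 0.17 and the synaptic vesicle gene Syp at 0.21. Closest to Rp1 were the rod phosphodiesterase gene Pde6b at 0.50 and Samd7 at 0.52, and closest to Rpgrip1 were Rbp3 at 0.23 and A930011O12Rik at 0.33. Tulp1 was closest to Nt5e, which encodes the surface marker CD73, at 0.22, and to Pitpnm3 at 0.32. Aipl1 was closest to Fn3k and Ttyh2, both at 0.17, and Unc119 to Zfp385b at 0.13 and Tmem86a at 0.28. The pseudocount weighs on matches to genes of low FPKM, such as Fn3k and Zfp385b with 0.755 and 1.02 in P1 pHes1_EPC.

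Prom1 and Fscn2 had other neighbours. The closest to Prom1 were Icmt, a methyltransferase of prenylated proteins, and Tshz2, both at 0.10, and the nearest of the other 9 genes was Aipl1, in place 226. The closest to Fscn2 were Mmd at 0.08 and Mrpl49 at 0.09, and the nearest of the other 9 genes was Prom1, in place 1846. The low levels of Fscn2 weigh on its pattern through the pseudocount. The same holds for the match of Tshz2 to Prom1. Tshz2 had FPKM of 2.68 and 0.419 in pHes1_ENC and pHes1_EPC at P1, and 9.48 and 1.53 at P4.

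The libraries held other cells as well. Hes1 had FPKM of 105 in P1 pHes1_EPC and 93.5 in P4 pHes1_EPC, beside 16.6 and 3.59 in pHes1_ENC. The 6 markers listed for mature rods summed to an FPKM of 460 in P1 pHes1_ENC, against 34.5 in its pHes1_EPC counterpart. At P4 they summed to 3361 against 698, and the ratios of the fractions were 13.3 and 4.82. In P1 pHes1_ENC the factor genes Nrl and Nr2e3 gave 164 and 148 of the sum. Gnat1 stood at 1.03 there, with overlapping intervals of the fractions. The ratios of the 10 genes together were 8.83 and 5.24, and in unscaled FPKM the library order of the rod markers was that of Prph2 and Rom1. The 8 cone markers summed to 298, 36.4, 808 and 257, with 1 to 4 of them below an FPKM of 1. Of these sums Gngt2 alone gave 202, 19.9, 692 and 216. Over the 7 cone markers that reached an FPKM of 1, the median change from P1 to P4 was 0.23 in pHes1_ENC and 1.17 in pHes1_EPC. Between the fractions the 11 markers of Müller glia and progenitors went the other way, with sums of 432, 1695, 215 and 2324. How far a changed share of rods in each fraction bears on the differences of the 10 genes was not tested.

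Blood and pigment epithelium markers also differed between libraries. The 7 erythroid markers summed to 214 in pHes1_ENC and 0.904 in pHes1_EPC at P1 and to 514 and 8.86 at P4, and 7 pigment epithelium markers to 5.26, 3.92, 7.62 and 82.6. Neither list has genes in common with the 10 genes. With the FPKM rescaled to the same total without the erythroid genes, a setting chosen after the data had been seen, the median difference of the 10 genes was -2.71 at P4. It was -2.72 when rescaled to the same total with the erythroid genes kept. Bipolar markers (7) summed to between 7.18 and 30.4, ganglion cell markers (7) to between 3.5 and 35.2, and microglia markers (7) to between 4.69 and 14.6. Amacrine and horizontal markers (7) summed to 327, 158, 107 and 160, of which Pax6 alone gave 246, 127, 28.3 and 126. Endothelial markers (6) summed to 63.7, 213, 15.3 and 194, of which Kdr alone, also expressed by retinal progenitors, gave 46.9, 209, 12.0 and 189, while Cdh5, Tek and Pecam1 did not exceed 0.142. No marker was at 0 in all 4 libraries.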

How the data were processed

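RNA of pHes1_EPC and pHes1_ENC sorted at each age gave 4 libraries. Reads of 36 bases, single-end, were mapped by the authors with TopHat 2.0.8b to NCBI37/mm9, allowing up to 50 positions per read, and deposited gene FPKM from Cufflinks 2.1.1 with 95% intervals. FPKM are divided by transcript length and library size and were used unscaled. Reads and counts were not used, so depth is known only through the intervals, whose half-width was 1.38% to 57.9% of their midpoint for the 10 genes. Of the 40 FPKM of these genes, 18 lay outside their own interval, whose midpoint was 85.0% to 88.2% of the FPKM for Unc119. Within a gene this offset differed between libraries by at most 1.083 times. Ranges of ratios were made from the interval bounds and cover counting error only.

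Each table held 23021 lines. Small RNAs (787 lines) were left out and the highest line of each of 235 repeated symbols was kept, which left 21828 genes. Their FPKM sums were 277433 (pHes1_ENC) and 294789 (pHes1_EPC) at P1, and 303876 and 372016 at P4. Differences were taken on log2(FPKM + 1) and called beyond 1. Shares called refer to the 12941 genes that reached an FPKM of 1 in 1 library or more. No test was possible with 1 library per group. The members, lists and motifs were chosen with earlier results of these data known. Besides the 10 genes, the paralogs analyzed (1 further gene is not reported here), the 2 genes with the lowest and the 2 with the highest P4 difference of each other list, and the 2 genes most similar to each of the 10 are named, and any other gene only where a statement needs it. Samd11, Tfap2a and Tfap2b were not found under these symbols, and Rp2 was read as Rp2h. Tools were pandas 2.3.3, numpy 2.4.6, matplotlib 3.10.9 and scipy 1.17.1 under Python 3.11.15, and the procedures were tested on simulated data.

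The alternatives were a pseudocount of 0.1 or none, only genes whose higher library reached an FPKM of 1, status OK in all libraries, quantile normalization, median-of-ratios scaling, rescaling to the same total, lines of a symbol summed, separate intervals as the call, and the 150 bases of each promoter window nearest to the start. Analysis without a filter on low values, and the same total without erythroid genes, were chosen after seeing the data.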

Additional observations from a re-analysis of the deposited data

Results flagged for a closer look

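Other genes related to the 10 maintenance genes had differences of opposite sign in the groups compared, and in no case was the difference between the groups tested. Of the 11 settings, those of filter and pseudocount cannot change the sign of a gene's difference. Fscn1, the paralog of Fscn2, was 1.05 higher in pHes1_EPC than in pHes1_ENC at P4 on the log2(FPKM + 1) scale and -0.24 at P1, with opposite signs in all 11 settings computed. From P1 to P4 it differed by 0.42 in pHes1_EPC and -0.86 in pHes1_ENC, and quantile normalization gave both the same sign. Tulp3, a paralog of Tulp1, differed between the ages by 0.26 in pHes1_EPC and -0.49 in pHes1_ENC, with opposite signs in 8 of the 11 settings. The signs were the same at the same total, with and without erythroid genes, and with quantile normalization. Rpgrip1l, the paralog of Rpgrip1, differed between the fractions by -0.33 at P4 and 0.29 at P1, with opposite signs in all 11. Rorb differed between the fractions by 0.15 at P4 and -0.55 at P1, with opposite signs in 7 of the 11. In every setting that rescales the libraries its signs at the ages were the same. Between the ages Rorb differed by 0.5 in pHes1_EPC and -0.2 in pHes1_ENC, with opposite signs in all 11. Hsp90ab1, the HSP90 gene listed with the partners of Aipl1, differed between the ages by 0.25 in pHes1_EPC and -0.24 in pHes1_ENC, with opposite signs in 8 of the 11. The settings that gave it the same signs were those named for Tulp3. None of the 10 maintenance genes changed sign between ages or fractions.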

How the results depend on the processing

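All 398 values of the 10 genes under the alternatives kept their direction. The filters, summed lines and pseudocounts could not reverse a direction for these genes. Only the settings that rescale the libraries were able to. The number called at P4 and the number higher at P4 in pHes1_ENC stayed at 10 throughout. At P1, 10 rather than 9 were called with a pseudocount of 0.1, with none, after rescaling to the same total and by separate intervals, with Fscn2 at -1.57, -1.98 and -1.20 under the first 3 of these. In pHes1_EPC, 9 rather than 8 were called higher at P4 under the first 3 settings and 10 by separate intervals. The median of the 10 genes at P1 was -3.60 with a pseudocount of 0.1, -3.62 with none and -3.65 at the same total. At P4 it was -2.72 at the same total, -2.62 with median-of-ratios scaling, -2.67 with quantile normalization and -2.71 at the same total without erythroid genes. The median change in pHes1_ENC was 1.86 with a pseudocount of 0.1, 1.92 with none, 1.64 at the same total, 1.58 with quantile normalization and 1.64 without erythroid genes. In pHes1_EPC it was 2.41 at the same total, 2.37 with quantile normalization and 2.33 without erythroid genes.

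Separate intervals called more of all genes: 4233 (32.7%) lower at P1, 3776 (29.2%) lower at P4, 3548 (27.4%) higher at P4 in pHes1_ENC and 5609 (43.3%) in pHes1_EPC. The same total gave 2067 (16.0%) lower at P4. Of all genes in pHes1_EPC, 1405 (10.9%) were higher at P4 with a pseudocount of 0.1, 1511 (11.7%) with none, 593 (4.58%) with quantile normalization and 464 (3.59%) at the same total without erythroid genes. The same total was 1e6, above the FPKM sum of each library, so the pseudocount of 1 also weighed less in that setting. Without erythroid genes the libraries were set to their mean total instead. These settings thus differ in more than the erythroid genes. The cause of these shifts was not tested. The median of all genes at P4 moved from 0.15 to -0.10 at the same total, and the 10 genes lay 2.57 and 2.62 below it on the log2 scale. In the 150 bases nearest to the start, TATAAA was found in 0 of the 9 genes (6.94% of all promoters), TAATCC in 2 rather than 3 (3.14%) and CANNTG in 3 rather than 4 (47.23%).

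No paired analysis was possible because each group has 1 library, and for the same reason no replicate was left out. Counting error limits Fscn2 most, with an interval half-width of up to 57.9% of its midpoint.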
